A study of Mus musculus with 6 samples.

Results

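The genes described here are the secreted and membrane-bound axon guidance cues of the mouse retina and the receptors that read them: the semaphorins and plexins, the ephrins and Eph receptors, the Slits and Robos, and the netrins and Unc5 receptors. They were taken by symbol (names that begin Sema, Plxn, Epha, Ephb, Efna, Efnb, Robo or Unc5, or Slit or Ntn followed by a digit) with at least 50 unique molecular identifiers (UMIs, counted RNA molecules) over all libraries. The rule kept 65 of 71 matching symbols, out of 32285 genes in the files, of which 19067 reached 50 UMIs. Below the limit were Efna4 (45 UMIs), Plxna4os1 (45), Robo4 (37), Ntn5 (29), Plxnb3 (25) and Unc5cl (24), and just above it were Plxna4os2 (84), Epha2 (85) and Sema3g (95). Of the 65, 3 match by name only: Unc50, which is not a netrin receptor, and Plxna4os2 and Plxna4os3, transcripts antisense to Plxna4.

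The data are single-nucleus RNA libraries from the retina of wild-type mice of the strain given as C57BL6/J, 3 libraries at 3 months of age and 3 at 18 months, in a study on diet-derived fatty acids and loss of vision with age. Each library is a replicate of its age in the labels, which do not say whether a library is 1 animal or a pool, so the p-values measure the spread between these libraries. All animals compared here are untreated, and age is the only difference between the groups that the labels give.

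Library totals ran from 15905689 to 29340705 UMIs, and 50241 nuclei were kept. They were clustered without the 65 genes and named from marker genes, which gave 8 classes with enough nuclei for tests: 10883 rods, 2245 cones, 1559 rod bipolar cells, 1084 cone bipolar cells, 5365 amacrine cells, 672 horizontal cells, 7943 retinal ganglion cells and 1292 Müller glia. A further 18487 nuclei stayed unnamed. The largest unnamed cluster held 8966 nuclei, of which 8612 came from replicate 3 at 18 months, the library that stands most apart. Also unnamed were clusters of 1680 and 540 nuclei that matched amacrine cells best, with 6 and 2 of 13 markers. The amacrine class does not hold these nuclei. Replicate 1 of each age was processed with Cell Ranger 7.1.0 and the other 4 libraries with 7.2.0, so each age holds both releases. Among kept nuclei, 340 barcode sequences occurred in more than 1 library. Rod markers were found in every class: all 12 had UMIs, at a summed level of 2855 to 33159 CPM (UMIs scaled to a common total) per library outside rods against 25130 to 77212 CPM in rods.

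During development, growing axons and dendrites carry receptors that read attractive or repulsive cues on or from neighbouring cells. Slits bind Robos, netrins bind Unc5 receptors and Dcc, ephrins bind Eph receptors on touching cells with signals in both directions, and semaphorins act through plexins, often with neuropilins as partners. In the retina the same families take part in the sorting of ganglion cell axons into a map of visual space and in the layering of dendrites in the inner plexiform layer, and many stay transcribed in the adult.

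The first comparison asked which retinal class carries each cue and each receptor. CPM here is a gene's share of all UMIs summed over the nuclei of 1 class in 1 library, with every class and library scaled to the same total, so they compare classes for 1 gene and not genes with each other. A gene was called higher in a class when its fitted level lay at least 1 log2 unit above the mean of the other 7 classes with an adjusted p of at most 0.05 (edgeR's quasi-likelihood test with each library as a block and Benjamini-Hochberg adjustment over all genes tested). Of the 65 genes, 43 had enough UMIs for this test and 40 of these were called in at least 1 class, for 83 pairs of gene and class: 7 in a single class, 23 in 2, 10 in 3 and none in more. Plxna2, Sema4b and Unc50 were called nowhere.

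The inner retina and the glia carried most of the calls. Retinal ganglion cells had 21 of the 43 genes called higher, where 12.9% of all genes tested were, amacrine cells 18 (8.83% of all genes), Müller glia 16 (9.07%) and horizontal cells 11 (7.51%). Cone bipolar cells had 7 (5.18%), rod bipolar cells 4 (5.3%), cones 3 (7.43%) and rods 3 (12.2%), so the photoreceptor counts lay near or below the share of all genes and the others above it. For 30 of the 43 genes the class of lowest mean level was the rod or the cone. For 13 genes the 6 libraries of the highest class did not overlap those of the next class: Epha3, Epha5, Epha6, Epha7, Robo1, Slit1, Slit2, Unc5c, Plxna4, Sema3a, Sema5a, Sema5b and Sema6a. The counts of 30 and 13 were not made over all genes tested, so they do not show whether the set differs from other genes.

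**Figure D1:**
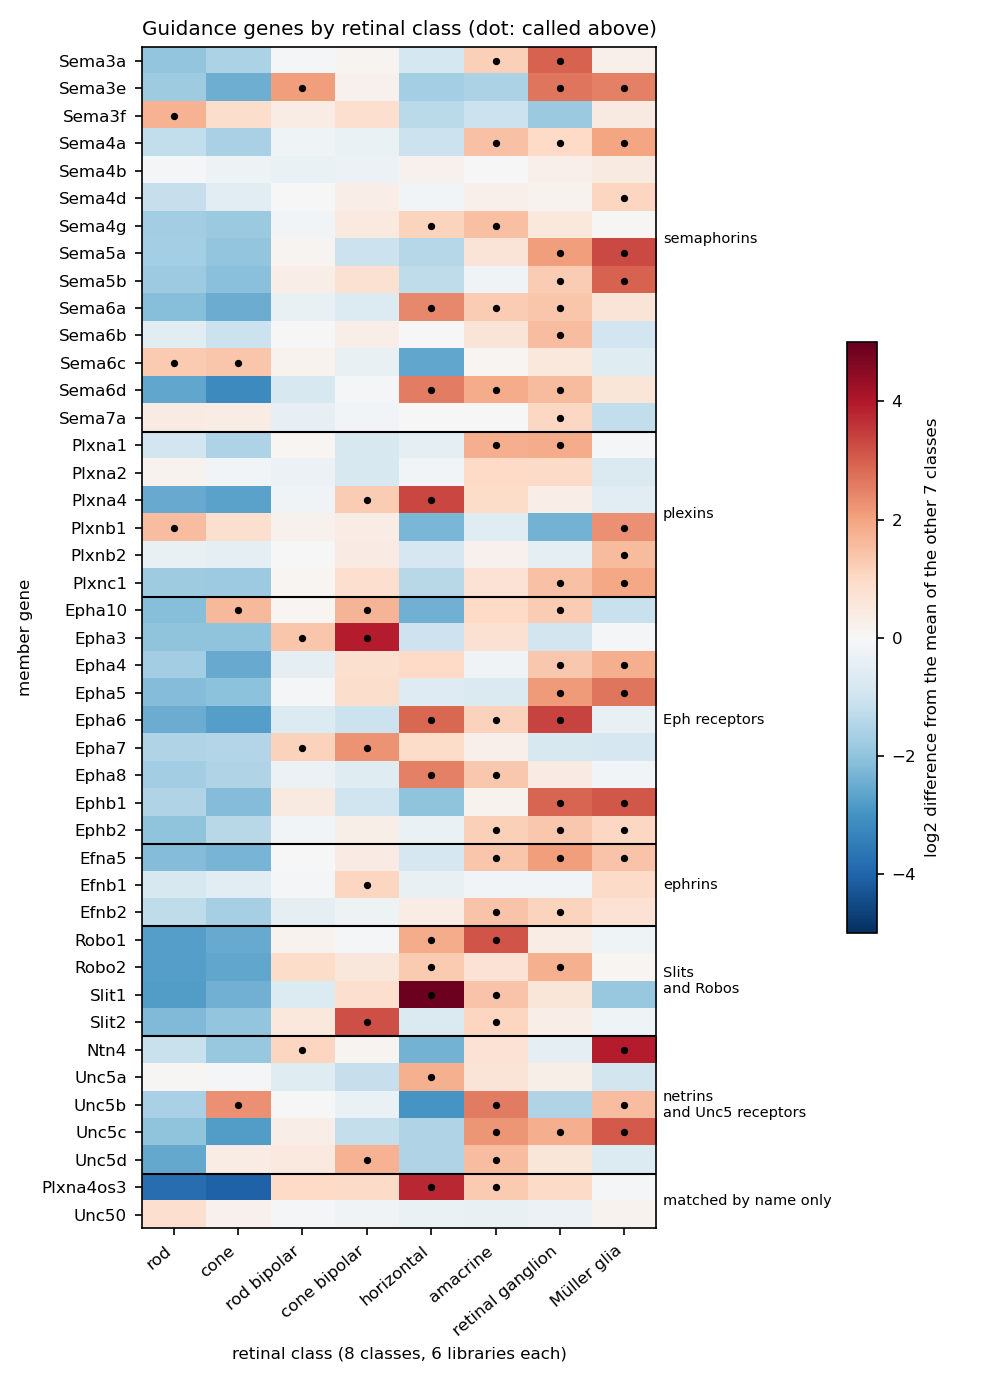
Log2 difference of each tested gene in each class from the mean of the other 7 classes, with genes in rows grouped by family and classes in columns, and a dot where the gene was called higher. Calls gather in the retinal ganglion, amacrine, Müller glia and horizontal columns, and the rod and cone columns hold 3 each.

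Among the Slits, the secreted ligands of the Robos, Slit2 was highest in cone bipolar cells and Slit1 in horizontal cells. Slit2 in cone bipolar cells had a lowest level of 1017, a median of 2205 and a highest of 3091 CPM over the 6 libraries, against 501, 549 and 743 CPM in amacrine cells, the next class. The cone bipolar libraries all lay above those of every other class, with a log2 difference of 3.24 ± 0.21 (SE; adjusted p = 2.11e-17 by edgeR's quasi-likelihood test). Slit1 in horizontal cells ran from 119 over a median of 211 to 510 CPM, against 18.5 to 56.7 CPM in amacrine cells, and its log2 difference of 4.90 ± 0.17 was the largest of all 83 pairs (edgeR adjusted p = 3.85e-29). Slit3 had too few UMIs for the test and stayed at or below 40.9 CPM in every tested class and library.

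Of the Robo receptors, Robo1 was highest in amacrine cells and Robo2 in retinal ganglion cells. Robo1 in amacrine cells had a lowest level of 1490, a median of 2181 and a highest of 2725 CPM, and horizontal cells came next with 622, 889 and 1018 CPM. The amacrine libraries did not overlap the horizontal ones, and the log2 difference was 3.15 ± 0.23 (edgeR adjusted p = 3.01e-16). Robo2 was spread more evenly over the neurons: retinal ganglion cells led with 1100.1 to 1352 CPM, rod bipolar cells had 512 to 1266 and horizontal cells 566 to 984, so neighbours in this order overlapped, and it was called in retinal ganglion (log2 difference 1.76 ± 0.14) and horizontal cells (1.30 ± 0.15). Robo3, known from commissural axons of the hindbrain and spinal cord, was at or below 12.2 CPM in every tested class and library and was not tested.

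Slit2, Epha3 and Epha7 had the largest log2 differences of the set in cone bipolar cells. Epha3 and Epha7 are A-type Eph receptors, which bind GPI-anchored ephrins. Epha3 in cone bipolar cells was at 358, 498 and 677 CPM as lowest, median and highest level, and rod bipolar cells were next at 42.9 to 181 CPM, without overlap (log2 difference 3.91 ± 0.20; edgeR adjusted p = 1.53e-21). Epha7 was at 307, 341 and 520 CPM in cone bipolar cells against 143 to 247 CPM in rod bipolar cells, again without overlap (2.27 ± 0.12; edgeR adjusted p = 3.65e-20).

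The promoters of these 3 genes are shown because the genes were called in the same class and lie on different chromosomes. They lie at the start of Slit2 (plus strand of chromosome 5, gene 47983138 to 48307733), Epha3 (minus strand of chromosome 16, gene 63543534 to 63864175) and Epha7 (plus strand of chromosome 4, gene 28813131 to 28967499), all protein-coding in the GENCODE annotation of mm10. Each window holds 250 bases before and 50 after the RefSeq start on GRCm38.p6, at chr5:47982905-47983204, chr16:63864126-63864425 and chr4:28812881-28813180 (the first of 2 Epha7 starts), written 5′ to 3′ on the gene's strand with TATAAA in capitals.
Slit2: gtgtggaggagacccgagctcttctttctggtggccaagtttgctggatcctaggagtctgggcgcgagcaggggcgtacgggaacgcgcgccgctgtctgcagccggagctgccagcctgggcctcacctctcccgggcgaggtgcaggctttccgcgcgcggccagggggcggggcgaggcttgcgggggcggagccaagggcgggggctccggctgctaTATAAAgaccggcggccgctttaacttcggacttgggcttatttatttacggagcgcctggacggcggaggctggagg
Epha3: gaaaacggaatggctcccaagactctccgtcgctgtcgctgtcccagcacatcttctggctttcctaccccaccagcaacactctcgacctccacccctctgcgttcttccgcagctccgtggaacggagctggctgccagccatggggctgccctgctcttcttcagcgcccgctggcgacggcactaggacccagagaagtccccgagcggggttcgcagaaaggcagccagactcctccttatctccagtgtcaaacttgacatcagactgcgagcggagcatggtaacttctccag
Epha7: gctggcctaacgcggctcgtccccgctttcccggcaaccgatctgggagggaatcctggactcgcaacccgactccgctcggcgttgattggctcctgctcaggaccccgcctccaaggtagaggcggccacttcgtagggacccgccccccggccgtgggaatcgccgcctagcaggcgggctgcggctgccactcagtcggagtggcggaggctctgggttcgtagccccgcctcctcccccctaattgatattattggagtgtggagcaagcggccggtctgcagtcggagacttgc
TATAAA, the core of the TATA box, was searched on both strands and occurs in the Slit2 window only of the 3. Promoters were found for 54 of the 65 genes, and it occurs in 2 of them, Slit2 and Efnb2 (3.70%), against 14.2% of 27025 genes. TAATCC, the core bound by the photoreceptor factor Crx and its relatives, occurs on either strand in 1 of the 54, Robo3 (1.85%), against 7.16% of all genes, and in none of the 3 shown. The median number of CG dinucleotides per window was 23 in the set and 7 over all genes. The 27025 genes were not limited to those with at least 50 UMIs, as the 54 were, so these values compare unlike sets. A match describes these letters and not a site in use.

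The Unc5 receptors, which mediate repulsion by netrins, had different leading classes. Unc5c in Müller glia ran from 943 over 1066 to 1251 CPM and did not overlap amacrine cells, at 507 to 723 CPM, nor ganglion cells, at 388 to 526, and all 3 classes were called (log2 differences 3.08 ± 0.26, 2.21 ± 0.27 and 1.83 ± 0.27). Unc5d was highest in cone bipolar cells (689, 864 and 1186 CPM) and amacrine cells (524, 824 and 970), which overlapped, and both were called. Unc5b, at far fewer UMIs, was called in amacrine cells (3.08 to 37.2 CPM; log2 difference 2.62 ± 0.24), cones (6.06 to 47.3 CPM; 2.28 ± 0.32) and Müller glia (0 to 23.2 CPM; 1.53 ± 0.42). Unc5a was called in horizontal cells only among the 8 classes, at 3.22, 49.6 and 91.9 CPM, a range that overlapped amacrine cells.

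Of the netrins, Ntn4, a laminin-like netrin of basement membranes, was the 1 member with enough UMIs for the class test. In Müller glia its level was 94.1, 65.5 and 19.9 CPM in the 3-month libraries and 81.0, 64.3 and 71.8 CPM in the 18-month libraries. Horizontal cells had at most 5.66 CPM and rod bipolar cells, the next class, 0 to 22.7 CPM, and the Müller log2 difference was 3.94 ± 0.25 (edgeR adjusted p = 8.72e-19). Ntn1, the classic attractant of Dcc, and Ntn3 did not pass the UMI filter, with no more than 12.4 and 21.2 CPM in any tested class and library.

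The Eph receptors were called in every class except rods. Epha6 in retinal ganglion cells had 871, 1093 and 1326 CPM as lowest, median and highest level, horizontal cells had 598, 743 and 771, and amacrine cells 224, 294 and 466, with no overlap among these neighbours. It was called in all 3 (log2 differences 3.38 ± 0.18, 2.86 ± 0.19 and 1.14 ± 0.20). Epha5, whose graded expression over the retina is part of the visual map, was highest in Müller glia (1191, 1378 and 2055 CPM; 2.68 ± 0.17) and next in ganglion cells (726, 938 and 1132 CPM; 2.11 ± 0.17), without overlap.

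Epha7 and Epha3 were called in both bipolar classes, with cone bipolar above rod bipolar levels, as given above. Epha3 in rod bipolar cells was not called with release 7.2.0 alone. Single amacrine clusters were also high, with Epha7 at 398 CPM in cluster 17 and Epha3 at 152 CPM in cluster 9. The class means were 370 CPM for Epha7 in cone bipolar cells and 96.9 CPM for Epha3 in rod bipolar cells. Ephb1, the receptor known for guiding ipsilateral ganglion cell axons at the chiasm, was called in Müller glia (139 to 368 CPM; log2 difference 3.10 ± 0.18) and ganglion cells (120 to 256 CPM; 2.91 ± 0.15), which overlapped. Epha4, which binds ephrins of both types, was called in these same classes, and Ephb2 in these and in amacrine cells. Epha8 was called in horizontal and amacrine cells. Epha10, an Eph receptor that lacks kinase activity, was the only Eph receptor called in a photoreceptor: its cone level of 54.0, 89.4 and 155 CPM gave a log2 difference of 1.62 ± 0.15 (edgeR adjusted p = 8.17e-13), while rods had 7.15 to 16.1 CPM. Epha10 was also called in cone bipolar and ganglion cells. Its highest mean was in cone bipolar cells, at 97.95 CPM against 95.3 CPM in cones, and these classes overlapped.

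Only 3 of the ephrins, the ligands tethered to the cell surface, had enough UMIs for the class test. Efna5, a GPI-anchored ephrin, was called in retinal ganglion cells (329, 411 and 484 CPM; log2 difference 2.08 ± 0.16), Müller glia (287 to 407 CPM; 1.41 ± 0.20) and amacrine cells (132 to 487 CPM; 1.39 ± 0.17), and these ranges overlapped. Efnb2, a transmembrane ephrin, was called in amacrine (30.8 to 65.4 CPM) and retinal ganglion cells (26.4 to 40.5). Efnb1 was called in cone bipolar cells, at 4.96 to 29.0 CPM, although its highest mean level was in Müller glia, at 12 to 22.1 CPM. Efnb3, Efna3 and Efna2 were not tested.

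Semaphorins were the largest family, with 14 genes tested. Sema3a, a secreted repellent that acts through neuropilin and plexin, had 111, 134 and 154 CPM in retinal ganglion cells against 39.0 to 72.5 in amacrine cells, without overlap (log2 difference 2.94 ± 0.21). Sema5a, a transmembrane semaphorin known to keep ganglion cell and amacrine neurites out of the outer retina, had 275, 357 and 386 CPM in Müller glia against 135 to 155 in ganglion cells (3.31 ± 0.16 in Müller glia). Its relative Sema5b followed the same order, with 41.9 to 131 CPM in Müller glia and 14.8 to 41.7 in ganglion cells. Sema6a, which has Plxna4 and Plxna2 as receptors, was highest in horizontal cells (316, 358 and 492 CPM; log2 difference 2.39 ± 0.17), followed by amacrine (184 to 281) and ganglion cells (196 to 243), whose ranges overlapped.

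Sema6d, also read by A-type plexins, was called in the same 3 classes as Sema6a, with 73.5, 92.0 and 107 CPM in horizontal cells. Sema3e, a ligand of Plxnd1, was called in retinal ganglion cells (170 to 197 CPM; log2 difference 2.69 ± 0.18), Müller glia (110 to 225 CPM; 2.53 ± 0.23) and rod bipolar cells (67.5 to 273 CPM; 2.08 ± 0.23).

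Rod bipolar cells were called for Sema3e, Epha3, Epha7 and Ntn4, and this class differed between libraries. In replicate 1 of each age, processed with release 7.1.0, it had 8400 and 9906 UMIs per nucleus against 1847 to 2193 in the other 4 libraries, and its markers summed to 3644 and 4018 CPM against 6665 to 12681. Sema3e followed the markers, at 67.5 and 72.0 CPM in replicates 1 and 199 to 273 CPM in the others. In the 4 libraries of release 7.2.0 alone the log2 difference was 2.63 for Sema3e and 1.33 for Epha7, both still called, and 1.03 for Epha3, which was not (edgeR adjusted p = 0.0979). Ntn4 was not called there either (edgeR adjusted p = 0.143), nor without replicate 1 at 3 months (0.0969) or with finer clusters (log2 difference 0.93). Of the 1559 nuclei of the class, 566 and 475 came from replicates 1. Left out was an unnamed cluster of 1661 nuclei with 6 of 10 rod bipolar and 5 of 11 cone markers. It held 3, 139 and 346 nuclei of replicates 1, 2 and 3 at 3 months and 12, 923 and 238 at 18 months.

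Rods and cones stood out in few genes. Sema3f, a secreted semaphorin read by neuropilin 2, was highest in rods at 60.2, 71.1 and 110 CPM, with cones next at 27.3 to 67.9 and ganglion cells lowest at 5.79 to 11.2 CPM (rod log2 difference 1.74 ± 0.11; edgeR adjusted p = 5.72e-18). Sema6c was called in cones (12.4 to 38.1 CPM; log2 difference 1.41 ± 0.22) and rods (11.2 to 44.1 CPM; 1.30 ± 0.19), which overlapped. Plxnb1, the receptor of Sema4d, was called in rods (22.2 to 69.0 CPM; 1.54 ± 0.17) and in Müller glia (40.9 to 88.4 CPM; 2.28 ± 0.21).

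Among the other plexins, the receptors of the semaphorins, Plxna4 was highest in horizontal cells at 215, 279 and 426 CPM and next in cone bipolar cells at 84.5 to 143 CPM, without overlap. Its horizontal log2 difference was 3.34 ± 0.15 (edgeR adjusted p = 2.82e-24). The antisense transcript Plxna4os3 had its highest level in the same class, at 5.66, 35.3 and 58.4 CPM (3.77 ± 0.30). The source used here does not say how strand was treated in counting, so reads of Plxna4 and of its antisense transcripts may not be separable. Plxna1 was called in retinal ganglion and amacrine cells, Plxnc1, the receptor of Sema7a, in Müller glia and retinal ganglion cells, and Plxnb2 in Müller glia. Plxna2, a receptor of Sema6a, was called in no class and ranged from 131 to 294 CPM in amacrine cells down to 55.5 to 92.9 in cone bipolar cells.

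**Figure D2:**
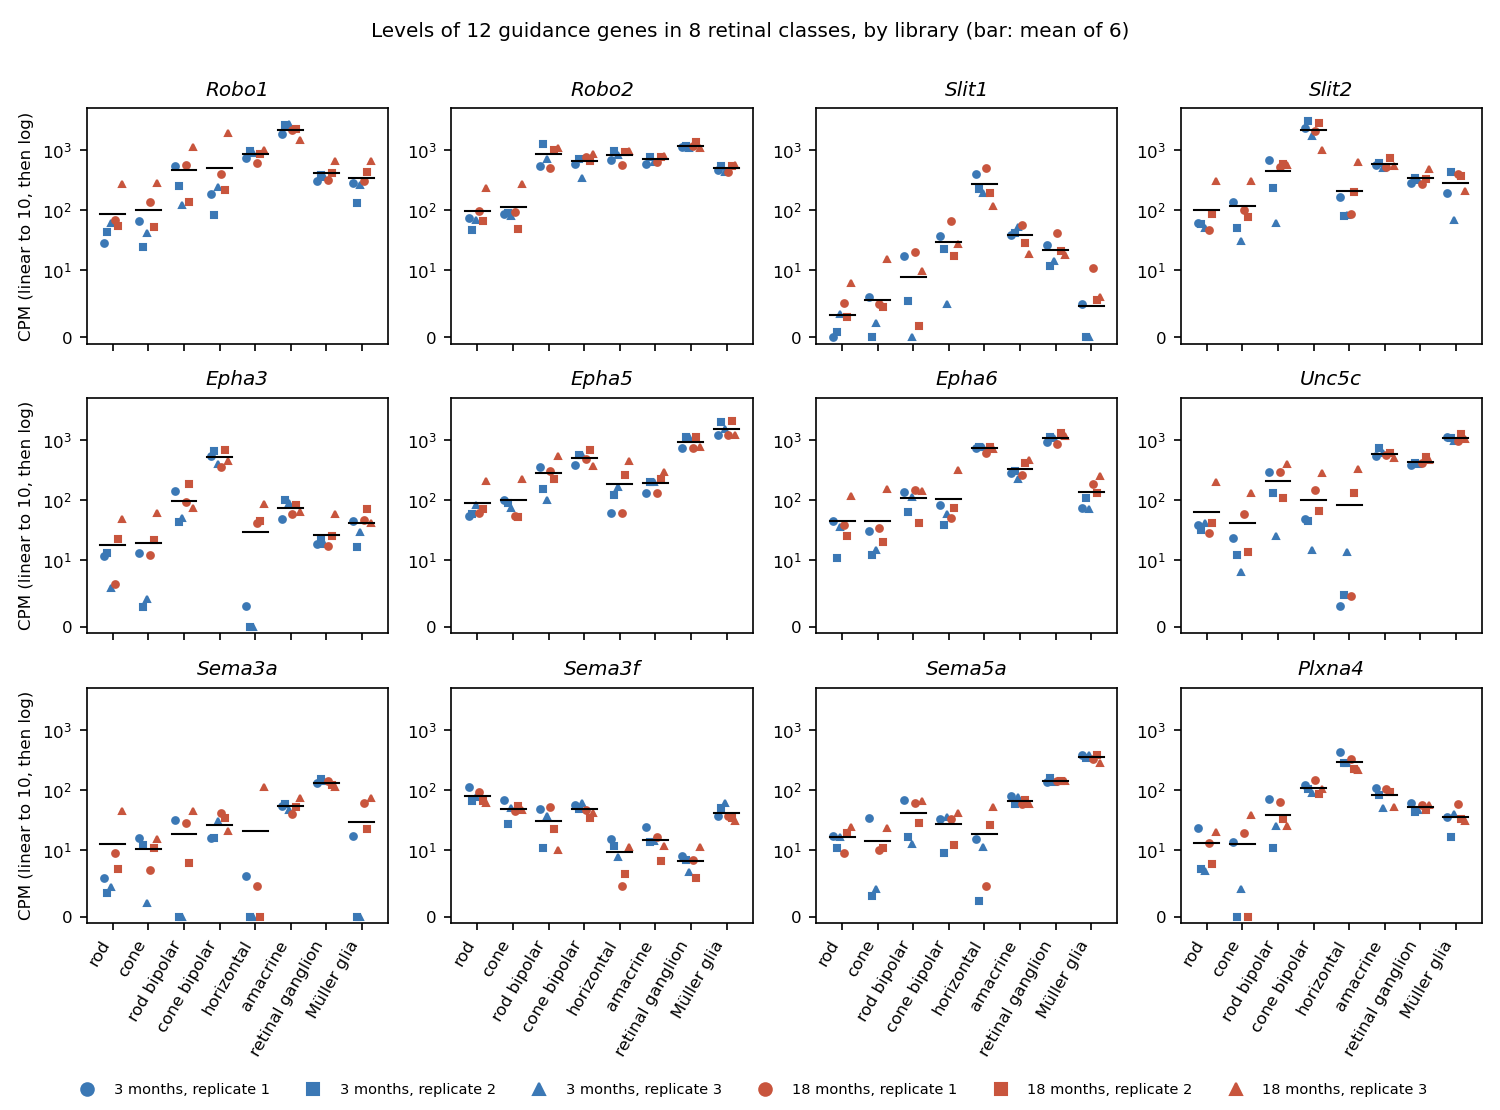
Level per library (CPM, axis linear up to 10 and logarithmic above) of 12 genes in the 8 classes; each point is 1 library, with colour for age and shape for replicate, and the bar is the mean of 6. Slit2 and Epha3 peak in cone bipolar cells, Robo1 in amacrine cells and Slit1 in horizontal cells, and the points of both ages mix.

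Several genes varied more among the clusters inside a class than the class mean shows. The clusters were formed without the 65 genes, the genes described were chosen after their values were seen, and levels are given without a test. In amacrine and ganglion cells only clusters of at least 300 nuclei were ranked. The smaller amacrine clusters 26.0, 26.1 and 26.3 (117, 67 and 42 nuclei) were left out, and Robo1 is among the leading genes of 26.1 and 26.3. In amacrine cells, Robo1 was at 3395 CPM in cluster 9, which has Tlr4, Tac2 and Tac1 among its leading genes. Robo1 was at 2838 CPM in cluster 15, led by Adarb2 and Maf, but at 267 CPM in cluster 17. Of the ranked amacrine clusters, cluster 15 also had most Slit2, at 1745 CPM against 218 CPM in cluster 17, so ligand and receptor were both high in it. It held the most Unc5d too, at 1795 CPM against 159 CPM in the starburst cluster.

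The starburst amacrine cells, marked by Chat and Slc5a7, had another set. Plxna2 was at 613 CPM there and at 247 CPM in the next cluster, and Epha10 at 219 against 52.6 CPM. Epha7 was at 398 CPM in cluster 17 and at no more than 90.4 CPM in the other ranked amacrine clusters. Sema6d was at 182 CPM and Slit1 at 99.6 CPM in cluster 9, with the next clusters at 16.2 and 16.1 CPM. Each of these clusters was highest of the ranked amacrine clusters for its gene in every library in which it had at least 20 nuclei. The exception was cluster 9 for Robo1, in 5 of 6.

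Retinal ganglion clusters differed as well. Cluster 3, which has Tbx20 among its leading genes, was highest in Sema3a (227 against 114 CPM in the next cluster), Sema5a (222 against 133 CPM) and Slit3 (16.3 against 3.67 CPM), in 6 of 6 libraries each. Cluster 20 was highest in Robo1 at 734 CPM, with 70.2 CPM in cluster 22, and in Sema6a at 370 CPM. Robo2 was highest in cluster 21, at 1699 CPM, and lowest in cluster 13, at 869 CPM.

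Within cone bipolar cells, Slit2 was highest in the main cluster. It was at 2676 CPM in cluster 16 (971 nuclei) and at 122 and 318 CPM in the small clusters 29.0 and 29.1, which Grik1 leads, while Epha3 was at 498 CPM in cluster 16 and at 1058 and 1193 CPM in the small clusters. Grik1 marks bipolar cells that respond to light decrements. In rods, clusters split by library (cluster 10 came mostly from the libraries of release 7.1.0, cluster 5 from replicates 2 and 3 at 3 months, cluster 1 from replicate 2 at 18 months), and differences among them are not described.

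**Figure D3:**
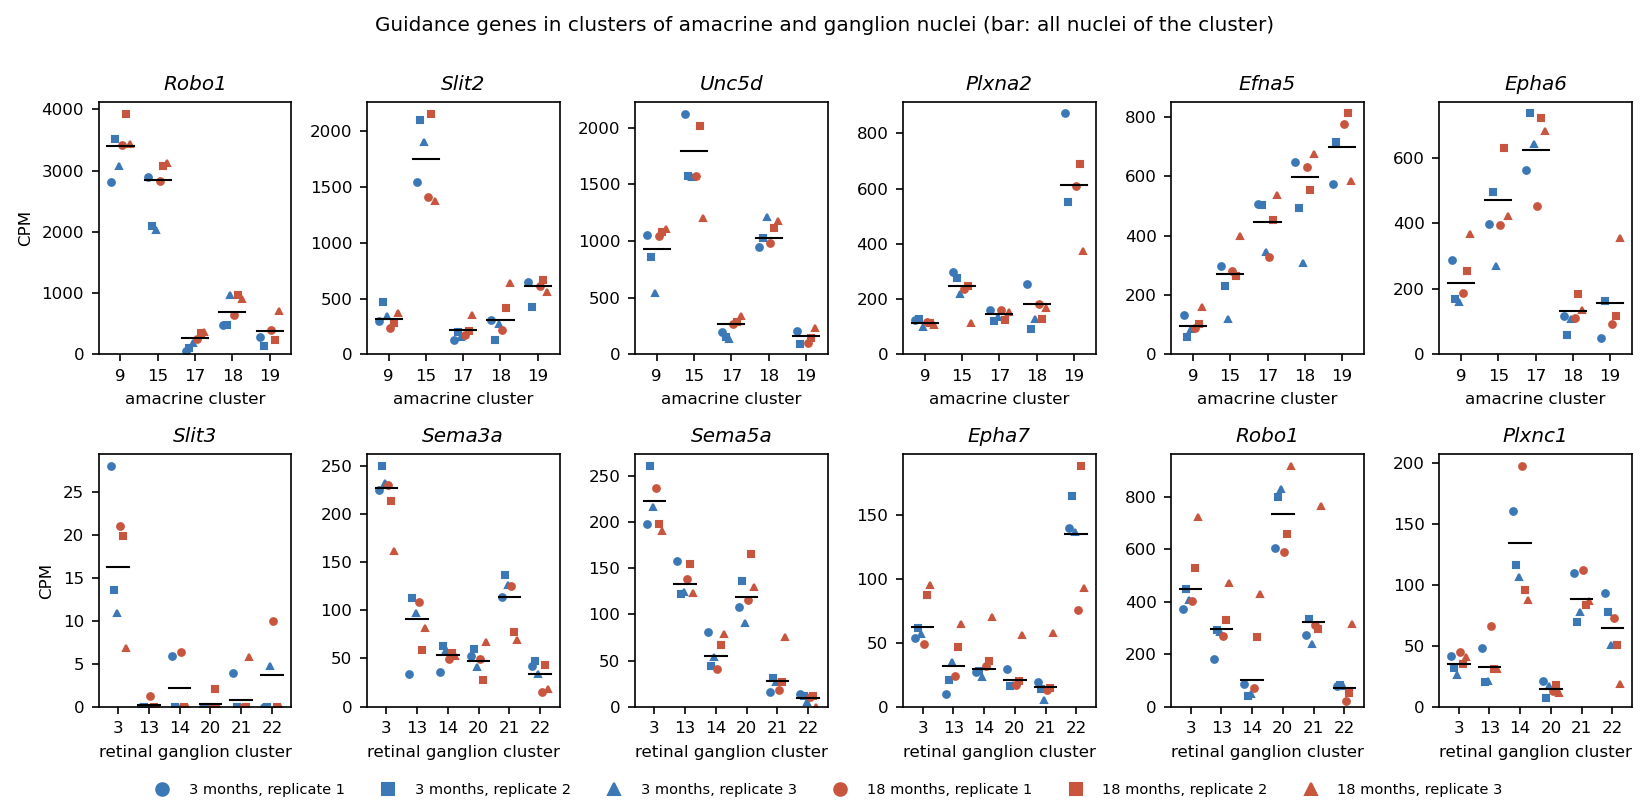
Level (CPM, linear axis) of selected genes in the amacrine clusters (upper row) and retinal ganglion clusters (lower row) of at least 300 nuclei; each point is 1 library with at least 20 nuclei of the cluster and the bar is the level over all its nuclei. Amacrine clusters 9 and 15 lie above the others in Robo1, and ganglion cluster 3 above the others in Sema3a and Sema5a.

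Outside the tested classes, a few cues were concentrated in vascular and epithelial nuclei, which were too few for a test. Sema3c, a secreted semaphorin known from the developing heart and vessels, had 52 UMIs in 217 endothelial nuclei, or 193 CPM (exact 95% Poisson interval 144 to 253), and 102 UMIs in 43 pigment epithelium nuclei, or 900.1 CPM (734 to 1093). Its highest mean in a tested class was 8.37 CPM, in rods. Ntn4 had 50 UMIs in pigment epithelium nuclei, or 441 CPM (328 to 582), against 66.1 ± 25.2 CPM (SD, n = 6 libraries) in Müller glia. The intervals cover counting error only. The endothelial nuclei were 32 at 3 months and 185 at 18 months, so ages were not compared in them.

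**Figure D4:**
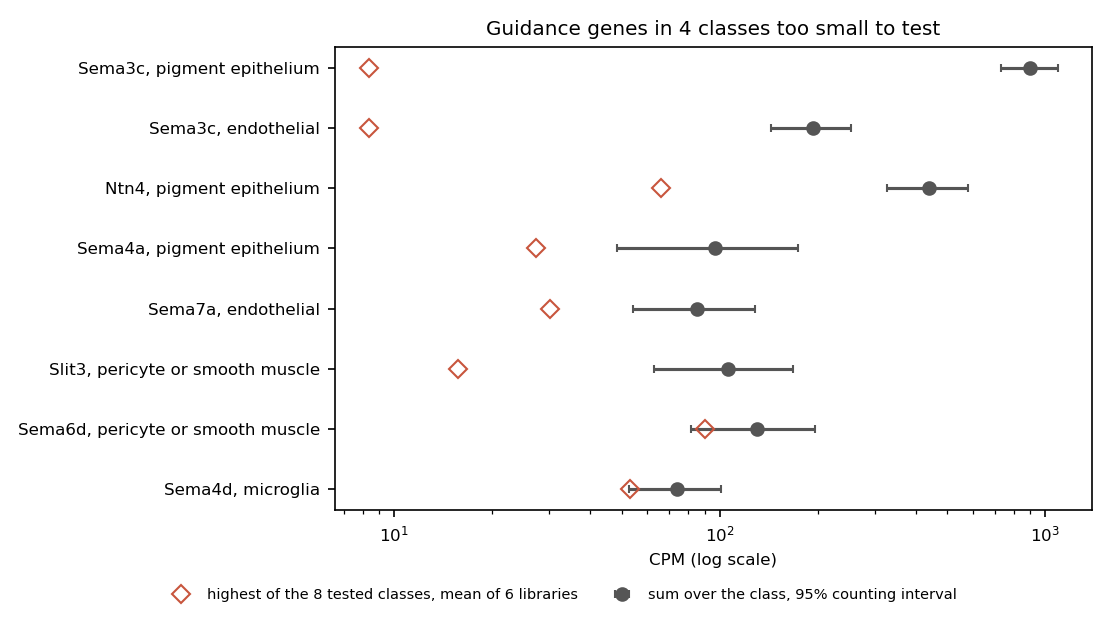
Level (CPM, log axis) of selected genes in the classes too small to test, with exact 95% Poisson intervals for counting error, beside the highest mean of a tested class. Sema3c and Ntn4 in pigment epithelium and Sema3c in endothelial nuclei lie above every tested class.

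The second comparison was age, 18 against 3 months within each class, with the Cell Ranger release as a second term. Values below are CPM scaled by edgeR's size factors, listed as replicates 1, 2 and 3. Between 19 (horizontal) and 58 (retinal ganglion) of the 65 genes could be tested in a class. A single gene in a single class passed: Epha3 in horizontal cells, 1 of 19, where 0.0936% of all genes tested were called higher at 18 months and 0.0187% lower. No gene of the set was called in rods, where 0.757% of all genes were called higher and 1.52% lower, or in Müller glia, with 0.506% and 0.604%, or in the other 5 classes, where no gene at all was called. At an unadjusted p below 0.05 there were 5 of 37 genes of the set in rods (23.6% of all genes tested), 4 of 19 in horizontal cells (9.00%), 4 of 49 in amacrine cells (7.66%) and 3 of 22 in cone bipolar cells (6.81%). There were 3 of 58 in retinal ganglion cells (7.18% of all genes), 2 of 21 in cones (7.27%), 2 of 29 in Müller glia (9.21%) and 0 of 24 in rod bipolar cells (1.04%). DESeq2 also called 1 gene of the set higher and none lower.

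Epha3 in horizontal cells was at 3.38, 0 and 0 CPM at 3 months and at 45.7, 48.9 and 83.4 CPM at 18 months. The ages did not overlap, and the log2 change was 5.33 ± 0.81 (edgeR's quasi-likelihood test, adjusted p = 0.0389). Of 19 genes of the set in horizontal cells, Epha3 alone was higher without overlap, beside 4.96% of all genes. Epha7 alone was lower without overlap, beside 4.72% of all genes. These values rest on few molecules: 1 UMI in 3 libraries at 3 months and 38 UMIs at 18 months, a ratio per UMI of 64.7 with a counting interval of 10.9 to 2623. By nuclei, 1 of 413 (0.242%, exact 95% interval 0.00613 to 1.34) carried an Epha3 UMI at 3 months and 18 of 259 (6.95%, 4.17 to 10.8) at 18 months. Replicate 3 at 18 months gave 12 of the 18, and without it the share was 6 of 149 (4.03%, 1.49 to 8.56). Rods, which have little Epha3, gave 0.915% and 1.75%, and cone bipolar cells 41.3% and 41.8%. The median depths were 2645 and 2203 UMIs per horizontal nucleus and 961.5 and 826 per rod nucleus.

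The same nuclei also held more cone bipolar RNA. The cone bipolar markers summed to 2455 CPM in the 18-month horizontal nuclei with Epha3 and to 655 CPM in those without, against 4825 CPM in cone bipolar nuclei, and the horizontal markers to 1767 and 2326 CPM. Their median depth in replicates 1, 2 and 3 at 18 months was 8064.5, 6642.5 and 1470.5 UMIs, against 2988, 2885 and 1406 in the other horizontal nuclei. The part of this in the Epha3 result was not tested. The call was lost with age as the only term (adjusted p = 0.0804), with a stricter mitochondrial limit (0.109), with no doublet removal (0.206) and with finer clusters (0.0615), and without replicate 2 or 3 at 3 months (0.514 and 0.431) or replicate 2 at 18 months (0.172). The log2 difference was positive within both releases, 3.41 in 7.1.0 and 6.07 in 7.2.0. With the replicate block the call held (adjusted p = 0.0453; 0.131% of all genes higher). In rods the block, which takes same-numbered libraries as pairs, called 2.52% of all genes higher and 6.93% lower and none of the set.

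The number of calls of the set at 18 months moved between 0 and 14 over the alternatives. In horizontal cells of the 4 libraries of release 7.2.0 alone, Unc5c, Unc5d and Slit2 were called higher beside Epha3. Over all genes, 214 were called in horizontal cells in that setting, against 6 in the analysis described. Unc5d in horizontal cells was at 64.3, 32.4 and 41.3 CPM at 3 months and at 45.7, 209.6 and 445 CPM at 18 months, so replicates 2 and 3 at 18 months lay above the rest and replicate 1 did not. Horizontal markers in this class summed to 1165 CPM in replicate 3 at 18 months and to 2299 to 3072 CPM in the other libraries. Cone bipolar markers there summed to 1052 CPM against 471 to 744 CPM. The part of this in the horizontal values was not tested. Without doublet removal the calls were instead in rods: Robo1, Robo2, Slit2, Sema3a and Unc5d higher, and Sema4c lower. Over all genes, 1257 were called in rods in that setting, against 265 in the analysis described.

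Epha6 in Müller glia had the next lowest adjusted p of the set. It was at 81.2, 124 and 80.4 CPM at 3 months and 199, 149 and 265 CPM at 18 months, without overlap, with a log2 change of 1.10 ± 0.30 that missed the threshold (edgeR adjusted p = 0.0816) and log2 differences of 1.28 and 1.01 within the 2 releases. With the replicate number as a block it passed (edgeR adjusted p = 0.0311), beside 0.886% of all genes tested higher and 0.998% lower in Müller glia. Robo1 in Müller glia was at 313, 152 and 299 against 331, 478 and 688 CPM (edgeR adjusted p = 0.275). Of the 29 genes of the set tested in Müller glia, 2 were higher without overlap, beside 5.58% of all genes. Lower without overlap was 1, Sema3f, beside 3.96% of all genes. The summed rod markers in Müller glia were 15472 to 20865 CPM per library at 3 months and 7213 to 11003 at 18 months, and the summed cone bipolar markers there were 393, 327 and 369 CPM at 3 months and 914, 861 and 718 CPM at 18 months, without overlap. The part of either in the values of Epha6 and Robo1 was not tested.

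In cone bipolar cells, Unc5c was at 53.6, 50.6 and 16.2 CPM at 3 months and at 159, 71.7 and 320 CPM at 18 months, again without overlap (log2 change 1.88 ± 0.48; edgeR adjusted p = 0.364). It was 1 of 22 genes of the set higher without overlap in this class, beside 3.65% of all genes. Lower without overlap was 1, Sema3f, beside 3.67% of all genes. Robo1 there was at 207, 94.0 and 270 against 434, 243 and 2185 CPM, with replicate 3 at 18 months above the other 5 libraries. In retinal ganglion cells, the class with most genes tested, the set had a median log2 change of 0.02 and that of all genes tested was 0.01. Slit1, with 24.6, 12.9 and 15 against 38.8, 21.6 and 18.0 CPM (log2 change 0.57 ± 0.16), and Sema3d, with 1.64, 2.65 and 2.39 against 5.02, 5.78 and 3.72 CPM (1.16 ± 0.34), had the lowest unadjusted p there and an adjusted p of 0.68 each by edgeR's quasi-likelihood test.

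**Figure D5:**
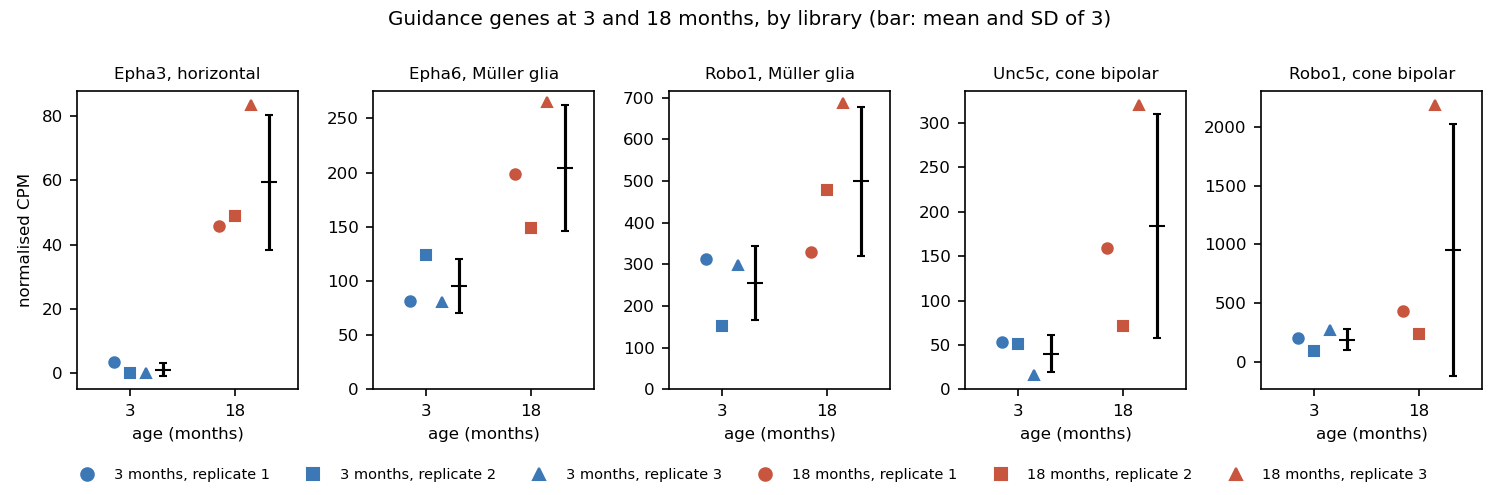
Level per library (CPM scaled by size factors) at 3 and 18 months for 5 pairs of gene and class from the age comparison; each point is 1 library, circles are the replicates processed with Cell Ranger 7.1.0, and the bars are the mean and SD of 3. Epha3 in horizontal cells is at 0 to 3.38 CPM at 3 months and 45.7 to 83.4 at 18 months, and it alone passed the test.

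Levels also followed the release. In retinal ganglion cells, 27 of the 58 genes of the set (46.6%) were higher in both libraries of release 7.1.0 than in all 4 of release 7.2.0, beside 25.3% of all genes tested, and in amacrine cells 19 of 49 (38.8%), beside 22.7%. Each age held 1 library of release 7.1.0 and 2 of release 7.2.0.

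In the photoreceptors and the bipolar cells the fitted changes leaned upward without a call. The median log2 change over the set was 0.28 in rods and 0.28 in cones, while that of all genes tested was -0.03 and -0.01. The set's median was 0.14 in rod bipolar cells and 0.11 in cone bipolar cells, beside 0.03 and -0.0001 for all genes. In rod bipolar cells 19 of 24 genes of the set had a higher fitted level at 18 months, beside 54.1% of all genes. Replicate 3 at 18 months was the highest of the 6 libraries for 19 of 37 genes of the set in rods (51.4%, against 19.6% of all genes) and 11 of 21 in cones (52.4%, against 25.8%), and for 10 of 58 in retinal ganglion cells (17.2%, against 24.1%). That library was also highest for 11 of 24 in rod bipolar cells (45.8%, against 23.05%) and 9 of 22 in cone bipolar cells (40.9%, against 24.6%). Many of the set are long genes: in rods, 17 of the 22 that span at least 100 kb and 7 of the 15 shorter ones had a higher fitted level at 18 months, and of all genes tested 85.8% and 39.8% did. In retinal ganglion cells the counts were 21 of 29 and 9 of 29, beside 80.8% and 45.4% of all genes.

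A test of whether the age change differed between classes called none of the 43 genes and none of 11671 genes (edgeR's quasi-likelihood F test over the class-by-age terms). At an unadjusted p below 0.05 there were 6 of the 43 and 516 of all genes. The lowest of the set was Epha3, with an adjusted p of 0.841 by edgeR's quasi-likelihood F test.

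The partners of these families, a list of 57 genes that holds the co-receptors Dcc, Neo1, Nrp1 and Nrp2, adhesion molecules and the cytoplasmic effectors, gave 1 call. Between 35 and 55 of them could be tested in a class. Dscam, a homophilic adhesion molecule that also serves as a netrin receptor, was at 222, 66.6 and 80.4 CPM in Müller glia at 3 months and at 345, 287 and 284 CPM at 18 months. The ages did not overlap and the log2 change was 1.22 ± 0.29 (edgeR adjusted p = 0.0368, and 0.839 with age as the only term). It was 1 of 44 genes of the list tested in Müller glia, where 0.506% of all genes were called higher and 0.604% lower. The part of the cone bipolar markers, which were also higher there at 18 months, was not tested. No other gene of the list was called in any class.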

How the data were processed

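Single-nucleus RNA was measured with 10x Genomics 3' chemistry in retina of 3- and 18-month mice, 3 libraries per age. The authors deposited raw UMI counts per gene and barcode, made with Cell Ranger 7.1.0 (replicate 1 of each age) and 7.2.0 (the other 4) per the file headers, on mm10 per the submitters' processing notes. Here, barcodes with at least 300 genes and at most 5% mitochondrial UMIs were kept (55230 of 62893). Scrublet's own threshold marked at most a few nuclei, so the highest scores were removed instead, 0.8% per 1000 nuclei in each library (4989 in all). Nuclei were clustered in scanpy 1.11.5 (2000 variable genes without the 65 described, 30 components, 15 neighbours, Leiden resolution 1, clusters under 300 nuclei divided again at 0.5). Clusters were named from marker lists with limits set after the clusters were seen, so class names are rebuilt ones. Counts were summed per class and library and tested with edgeR 4.0.16 (quasi-likelihood, TMM, its own low-count filter, Benjamini-Hochberg adjustment over all genes). Standard errors are the fitted log2 value over the root of its F statistic. The age fit had age and release as terms, the class fit the library as a block. UMIs summed per class and library ran from 80639 to 8608907. Confidence intervals are exact at 95% and cover counting error only. DESeq2 1.42.0, other scalings, filters, clusterings and left-out libraries were tried as alternatives, and scripts were tested on simulated counts.

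The replicate numbers are the labels'. Deviations of same-numbered libraries correlated at 0.653, 0.586 and 0.17 in rods and at 0.644, 0.363 and 0.18 in retinal ganglion cells. Same-numbered libraries were taken as pairs only in the replicate block, an alternative run in every class. The main age fit, with age and release as terms, used no pairs in any class. Replicate 3 at 3 months correlated more with replicate 2 at 18 months, at 0.424 in rods and 0.37 in ganglion cells. Both replicates 1 share release 7.1.0, so replicate number and release cannot be told apart for them. In the other 6 classes the correlation of replicates 3 ran from -0.112 in rod bipolar cells to 0.082 in Müller glia.

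Genes named are those called by age, the 6 of each family with most UMIs and the 3 of largest log2 difference in each class, with other genes marked as chosen after their values were seen. The genes and lists were chosen with earlier results of these data known. Sequences come from RefSeq and positions from GENCODE.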

Additional observations from a re-analysis of the deposited data

Results flagged for a closer look

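Sema3c was above every tested class in 2 populations outside the comparisons, at 193.1 CPM in endothelial nuclei and 900.1 CPM in pigment epithelium nuclei. Ntn4 was likewise at 441.2 CPM in pigment epithelium nuclei. These classes held 217 and 43 nuclei and were not tested.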

How the results depend on the processing

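The number of class calls stayed within 1.5 times under the alternatives run: 83 pairs of gene and class in the analysis described, 76 with the 4 libraries of release 7.2.0 alone, an alternative added after seeing the data (67 shared), 112 with no filter on low counts, and 78 to 91 when 1 library was left out. Of the 83 pairs, 59 were called under every alternative run and 24 were lost under at least 1, among them Ephb2 in Müller glia, Efnb1 in cone bipolar cells, Epha3 and Ntn4 in rod bipolar cells, Slit2 in amacrine cells and Unc5b in its 3 classes. Of the 16 lost with release 7.2.0 alone, 13 did not pass its filter on low counts. The age calls were not stable. Calls over all genes moved as well, from 265 to 1257 in rods without doublet removal. In horizontal cells they moved from 6 to 214 with release 7.2.0 alone. Higher at 18 months were 0 pairs with age as the only term, with a mitochondrial limit of 2% and with Leiden resolution 2, 4 with the libraries of release 7.2.0 alone, 5 without doublet removal, 14 with no filter on low counts, and 0 to 6 when 1 library was left out (0 without replicate 2 or 3 at 3 months, 6 without replicate 1 at 3 months). Lower were 1 without doublet removal and 0 to 1 when 1 library was left out. With the replicate number as a block there were 2 pairs higher, Epha3 in horizontal cells and Epha6 in Müller glia, and no other call of the set changed. Class-by-age terms called 5 genes with no filter on low counts and 0 under the other settings run. The causes were not tested. Depth limits the age comparison in rod bipolar cells, Müller glia and cones, with as few as 80639, 100327 and 129746 UMIs in a library.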
